A study of Mus musculus with 76 samples.

Results

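The nuclear genes of mitochondrial complex I were followed through bulk RNA-seq of embryonic day 16 (E16) dorsal forebrain, from which the cerebral cortex develops, in C57BL/6J mice whose parents had been given the pyrethroid insecticide α-cypermethrin. The set comprised every protein-coding gene of the deposited count table whose symbol starts with Nduf, which gave 46 of 14823 genes. Of these, 10 belong to the NADH-oxidising N module, 6 to the ubiquinone-reducing Q module, 9 to the proximal and 11 to the distal part of the membrane arm. A further 8 are assembly factors with a name that starts with Ndufaf, and 2 are Nduf-named genes outside complex I. All 46 passed the filter on low counts, the lowest count of any member in any library being 65 (Ndufa4l2).

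Adult males and females received α-cypermethrin or vehicle for 28 days (7 days of dosing and then 3 rounds, each with 2 days off and 5 days on) and were then mated. Ctrl embryos (12 libraries) had vehicle-treated parents. Paternal_0.3Cyp (12 libraries) and Paternal_10Cyp (10) had an exposed father and a vehicle-treated mother, Maternal_0.3Cyp (12) and Maternal_10Cyp (8) an exposed mother and a vehicle-treated father, and Both_0.3Cyp (12) and Both_10Cyp (10) had both parents exposed to the same dose. The doses are those printed in the group names, 0.3 and 10, whose unit the labels do not give, and dosing ended before mating. Each group held both sexes, and 4 to 8 libraries from each of the 2 batches that the labels number without saying what a batch was. The labels name no litter or parent, so p-values measure the spread between these libraries and may be too small where embryos shared a dam.

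As background, complex I is the entry point of the respiratory chain: it passes electrons from NADH to ubiquinone and pumps protons across the inner mitochondrial membrane. Its hydrophilic arm carries the flavin and the iron-sulfur clusters in the N and Q modules, and its membrane arm carries the proton pumps. The pump subunits are encoded by mitochondrial DNA (the mt-Nd genes), whereas the genes described here are nuclear, are translated in the cytosol and are imported. Neurons depend on the complex, and inherited loss of its subunits or assembly factors causes Leigh syndrome and related brain disease.

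Between 17.7 and 41.4 M counts were deposited per library (median 19.2 M), and 17 libraries exceeded 19.9 M, among them all 10 of Both_10Cyp and none of Ctrl. The labelled sex matched the Y-linked counts in all 76 libraries (40 male, lowest summed count 1403; 36 female, highest 37), and no libraries held identical values. The 12 markers of dorsal forebrain fixed for the tissue check were present in every library, at 1692 to 4586 normalised counts-per-million units (CPM, with library sizes scaled by the trimmed mean of M-values) in sum. In these bulk samples, fewer cells of a type and less RNA per cell cannot be told apart.

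A single library stood apart for the complex I genes. Paternal_0.3Cyp replicate 8 (batch 2, 18.1 M counts) held 4559 CPM over the 46 genes together, 9.69 SD above the other 75 libraries, of which the highest, Maternal_10Cyp replicate 1, held 3084. Every one of the 46 genes had its highest level there, at 1.03 to 1.92 times the next library. In the same library the 38 nuclear subunits of complexes II to V summed to 10110 CPM (at most 7593 elsewhere), red blood cell markers to 3753 CPM (1308 to 2514 elsewhere), and other genes with transcripts under 1000 bases took 10.6% of all counts (5.36% to 7.79% elsewhere). Counts of Nduf genes called higher than in Ctrl are therefore given with and without this library. Because all groups shared one estimate of the spread, leaving it out also changed the calls in groups it did not belong to.

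The promoters of the genes that led the test over all 6 exposed groups are shown first, because nuclear respiratory genes are known to share binding sites of NRF1, of ETS-family factors such as GABP, and of YY1 near their start sites. The stretches are upstream of the start, 5′ to 3′ on the gene's strand, from RefSeq on GRCm38.p6, for the 4 genes of lowest joint p whose single entry holds at least 150 bases upstream of both the RefSeq and the GENCODE start. Ndufa2 and Ndufa12, which had a lower joint p than some of them, are not shown. They come from Ndufa6 (chr15:82354323-82354541, minus strand), Ndufs6 (chr13:73328543-73328732, minus strand), Ndufaf8 (chr11:120098684-120098927, plus strand) and Ndufb5 (chr3:32736813-32736989, plus strand), and capitals mark a match to a searched motif.
Ndufa6: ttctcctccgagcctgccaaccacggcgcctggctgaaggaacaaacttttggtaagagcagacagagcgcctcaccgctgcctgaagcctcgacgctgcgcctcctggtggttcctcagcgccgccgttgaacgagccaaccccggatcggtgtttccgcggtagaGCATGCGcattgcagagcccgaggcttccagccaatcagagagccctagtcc
Ndufs6: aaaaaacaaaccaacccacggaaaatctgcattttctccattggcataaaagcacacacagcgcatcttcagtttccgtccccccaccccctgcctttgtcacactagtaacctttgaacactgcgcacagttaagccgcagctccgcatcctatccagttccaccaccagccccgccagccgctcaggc
Ndufaf8: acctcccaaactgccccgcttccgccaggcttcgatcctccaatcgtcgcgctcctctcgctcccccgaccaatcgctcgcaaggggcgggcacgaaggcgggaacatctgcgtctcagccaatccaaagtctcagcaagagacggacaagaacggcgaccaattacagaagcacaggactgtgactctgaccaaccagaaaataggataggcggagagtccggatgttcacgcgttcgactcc
Ndufb5: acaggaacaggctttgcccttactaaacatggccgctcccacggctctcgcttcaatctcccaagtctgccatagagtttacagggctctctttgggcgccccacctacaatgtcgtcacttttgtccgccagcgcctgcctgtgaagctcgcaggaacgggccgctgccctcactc

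The capitals in the Ndufa6 stretch are the NRF1 core CGCATGC read on the other strand. In the full windows of 300 bases (250 before to 50 after the start), which 40 of the 46 genes had, the NRF1 core lay on either strand in 5 genes (12.5%, against 4.01% of the 27025 genes and 3.58% of the 32851 promoters of the table). The ETS core CCGGAAG lay in 6 of the 40 genes (15.0%, against 9.93% of all genes and 8.86% of all promoters), and the YY1 core AAGATGG in 8 (20.0%, against 7.28% and 6.34%). At least 1 of the 3 lay in 18 of the 40 genes (45.0%, against 19.3% of all genes and 17.3% of all promoters). A gene with several windows counted once, if any of them held the core. These matches describe the letters and were not tested as binding sites. The other 3 printed stretches hold no core, but they are shorter than the full windows. In its full window Ndufs6 held the YY1 core, Ndufaf8 the ETS and YY1 cores, and Ndufb5 none.

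Per kilobase of transcript, levels over all 76 libraries spanned from 180.9 CPM for Ndufa4 to 6.03 for Ndufa4l2. Next to Ndufa4 stood Ndufb8 (119.8 CPM per kilobase), Ndufb9 (117.7), Ndufc2 (114.3) and Ndufa7 (111.8), which are small accessory subunits. The 8 Ndufaf genes, whose products act on assembly intermediates and are not part of the finished complex, ranked 34 to 45 of 46, from 27.1 CPM per kilobase for Ndufaf2 to 7.21 for Ndufaf6. After group, batch and sex means were removed, the 46 levels moved together across libraries: over 1035 pairs of genes the median correlation was 0.733, and every pair was above 0. Each gene was also set against the mean of the standardised log2 levels of the others. The genes least tied to this mean were Ndufaf4 (r = 0.388) and Ndufa4l2 (0.520), and Ndufa4 was tied most closely (0.955). The libraries share depth and composition, so these values are a description. They include Paternal_0.3Cyp replicate 8, in which all 46 genes were at their highest, and were not computed without it.

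The summed level of the 46 genes was 2269 ± 173.3 CPM in Ctrl (SD, n = 12), from 2046 to 2543 with a median of 2230. In Maternal_10Cyp it was 2699 ± 171.2 (n = 8; 2487 to 3084, median 2684), and 7 of the 8 libraries lay above the highest Ctrl library. Paternal_10Cyp reached 2547 ± 298.7 (n = 10; 2135 to 2952, median 2575) and Both_10Cyp 2522 ± 154.1 (n = 10; 2224 to 2707, median 2534), so both overlapped Ctrl, with 5 and 4 libraries above its highest value.

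At the dose labelled 0.3 the sum was 2438 ± 166.7 CPM in Maternal_0.3Cyp (n = 12; 2199 to 2704, median 2354) and 2488 ± 159.4 in Both_0.3Cyp (n = 12; 2296 to 2725, median 2474). Paternal_0.3Cyp held 2607 ± 635.0 (n = 12), and 2429 ± 166.2 without replicate 8 (n = 11; 2179 to 2722). All groups at 0.3 overlapped Ctrl. The sum was lower in batch 2 than in batch 1 in every group except Paternal_0.3Cyp (2662 against 2552 CPM, replicate 8 included), for example 2134 ± 78.3 against 2404 ± 126.7 in Ctrl (n = 6 each) and 2615 ± 92.8 against 2783 ± 202.6 in Maternal_10Cyp (n = 4 each).

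**Figure D1:**
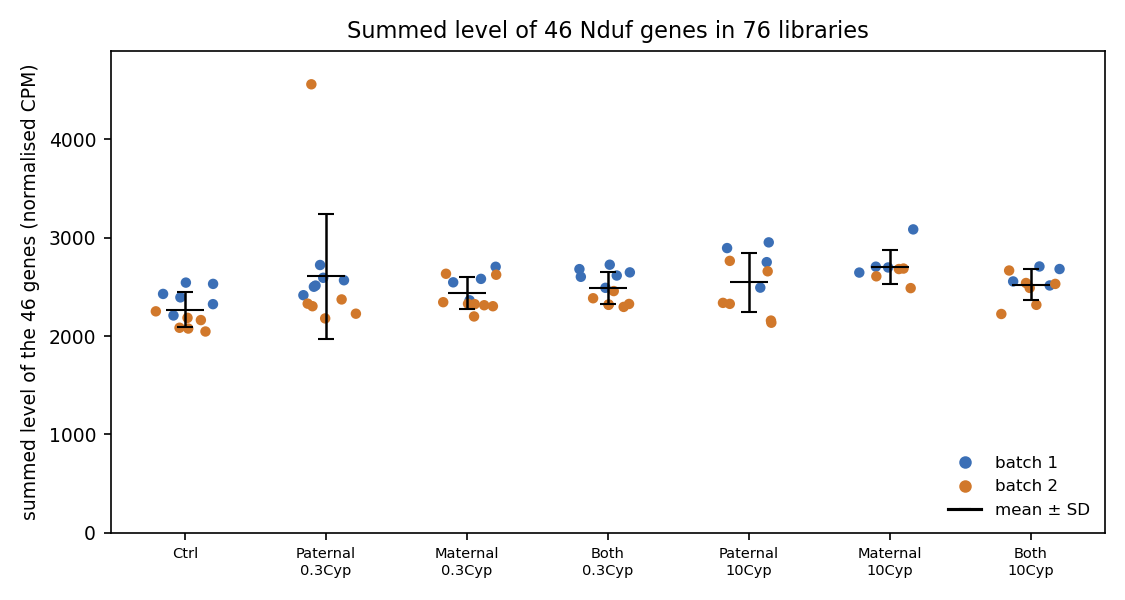
Summed level of the 46 Nduf genes (y axis, normalised CPM) in each of the 76 libraries by group (x axis); points are libraries marked by batch, and bars give the group mean and SD. Ctrl libraries lie between 2046 and 2543, Maternal_10Cyp libraries between 2487 and 3084, and Paternal_0.3Cyp replicate 8 stands alone at 4559.

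Against Ctrl, complex I genes were called higher in every exposed group and none was called lower, and the group of exposed mothers at 10 had the most. With all libraries, edgeR called 35 of 46 genes higher in Maternal_10Cyp (20.4% of all genes tested were higher there), 33 in Paternal_0.3Cyp (15.4%) and 25 in Paternal_10Cyp (10.7%). The count was 9 in Both_10Cyp (2.34%), 6 in Maternal_0.3Cyp (10.9%) and 6 in Both_0.3Cyp (10.5%), so the shares of members in the groups at 0.3 other than Paternal_0.3Cyp were near the background. Genes called lower made up 20.4%, 12.2%, 10.8%, 1.58%, 12.8% and 11.8% of all genes tested in the same order of groups. Median log2 fold changes of the 46 were 0.26, 0.21, 0.19, 0.17, 0.12 and 0.12 in that order, beside -0.013, 0.011, -0.0084, 0.0011, 0.0071 and -0.0017 for all genes tested. The 6 comparisons share the Ctrl libraries and are not independent of each other.

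Without Paternal_0.3Cyp replicate 8, the counts were 38 in Maternal_10Cyp (23% of all genes tested were higher), 37 in Paternal_10Cyp (15.9%), 31 in Both_0.3Cyp (16%), 29 in Both_10Cyp (8.9%), 28 in Maternal_0.3Cyp (16.1%) and 10 in Paternal_0.3Cyp (8.54%). The paternal group at 0.3 therefore kept 10 of its 33 calls without that library, and its median fell to 0.099. The medians of the other groups moved little while the calls increased, to 0.13 in both Maternal_0.3Cyp and Both_0.3Cyp, 0.20 in Paternal_10Cyp, 0.26 in Maternal_10Cyp and 0.17 in Both_10Cyp. In those 5 groups, every gene called with all libraries (6, 6, 25, 35 and 9 genes) was also called without that one. The joint test of the 6 groups called 18 of 46 genes (21.7% of all genes tested) with all libraries and 36 (31.9%) without that one.

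**Figure D2:**
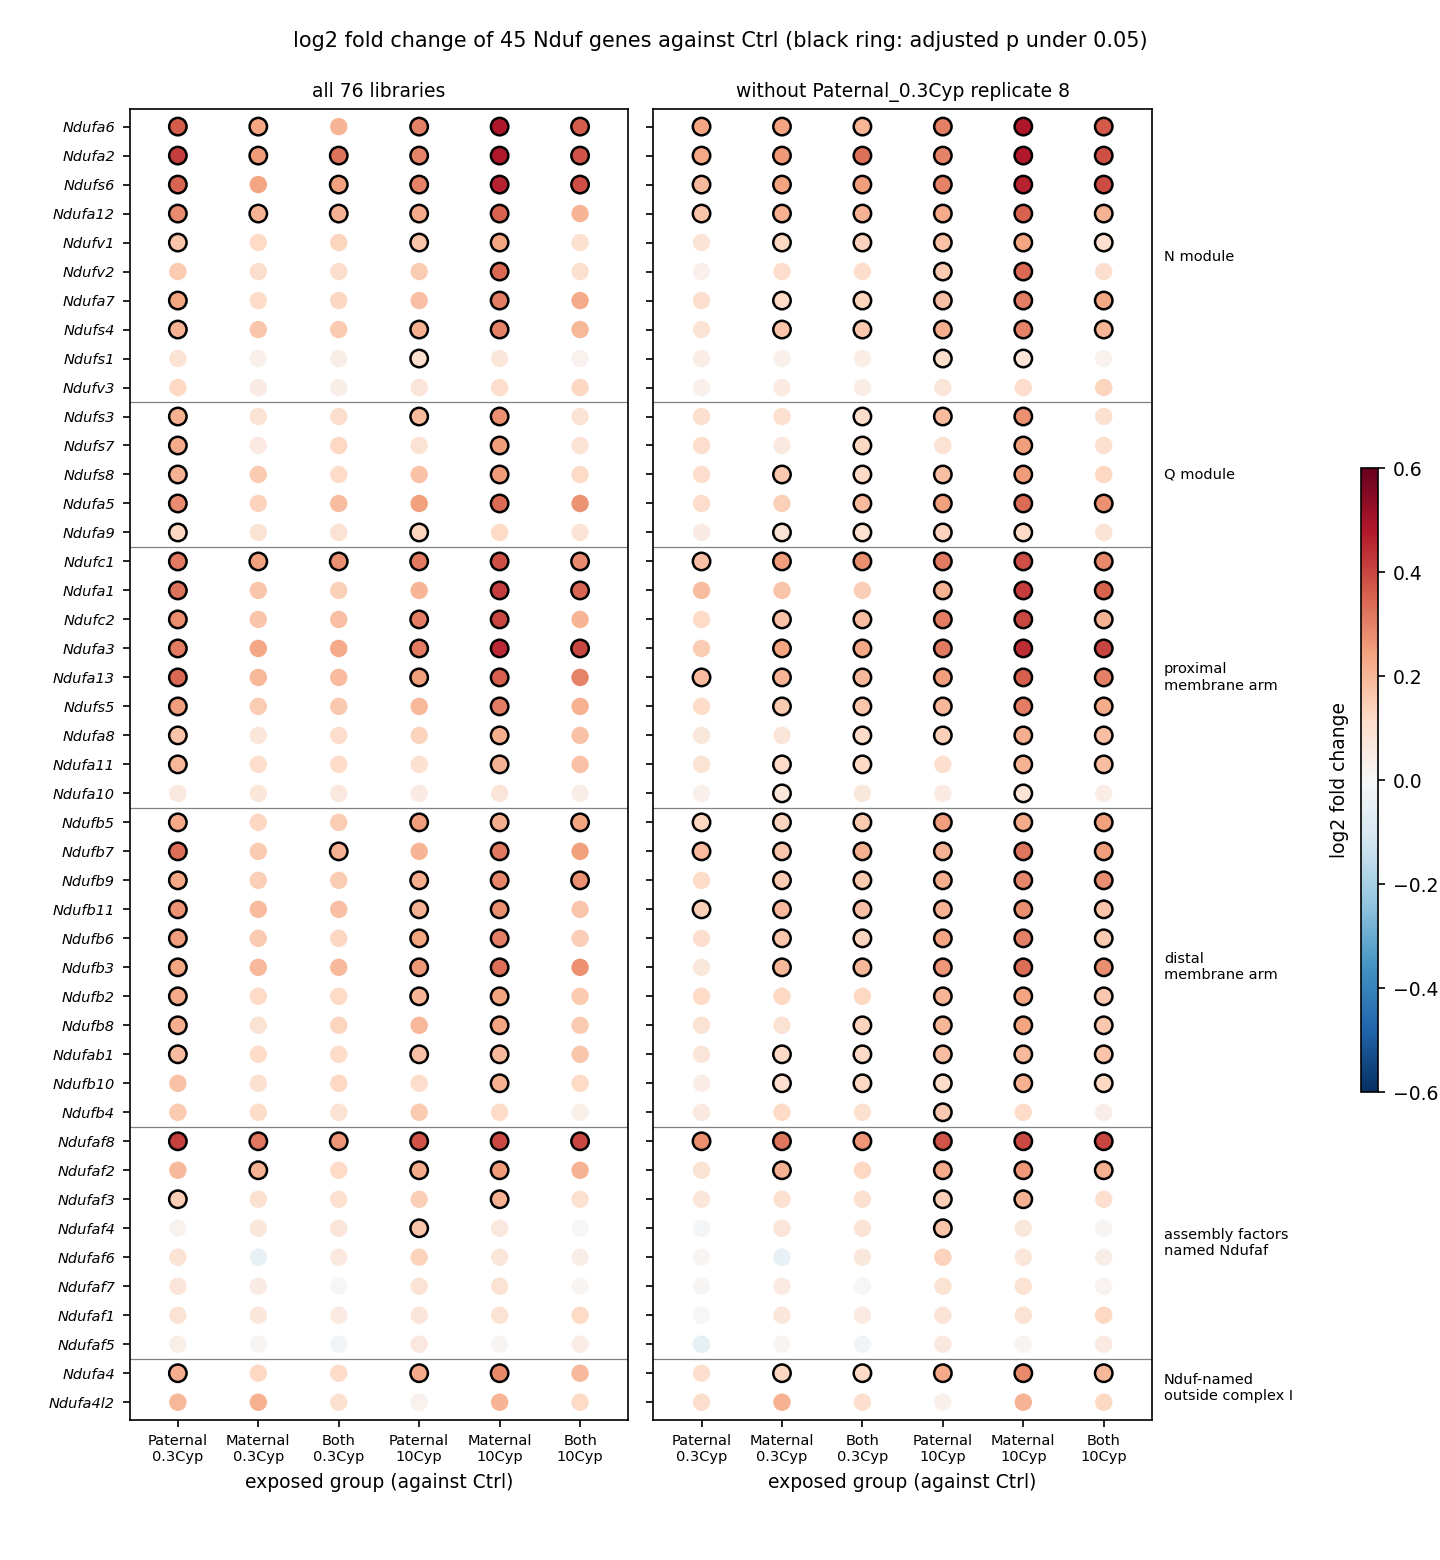
Log2 fold change against Ctrl (colour) of 45 of the 46 Nduf genes (rows, by role) in the 6 exposed groups (columns), with all 76 libraries on the left and without Paternal_0.3Cyp replicate 8 on the right; a black ring marks an adjusted p under 0.05. Rings go from 32 to 10 in the first column and from 6 to 27 and 30 in the next 2, and the Maternal_10Cyp column has 34 and 37.

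Other single libraries also moved the counts. The percentages here are the shares of all genes tested that were called higher in the same fit. Maternal_0.3Cyp had 1 call (7.12%) without Maternal_0.3Cyp replicate 5. Both_0.3Cyp had 3 without Ctrl replicate 3, 7, 8 or 12 (7.21%, 7.04%, 7.53% and 8.12%) and 3 without Both_0.3Cyp replicate 5, 6 or 7 (9.9%, 9.43% and 7.41%). Paternal_10Cyp had 15 (8.06%) without Ctrl replicate 7, and 10, 7, 8 and 12 without Paternal_10Cyp replicate 1, 2, 5 and 6 (8.57%, 6.75%, 7.01% and 7.71%). Both_10Cyp had 15 (6.28%) without Ctrl replicate 6, 2 (0.516%) without Ctrl replicate 8, and 1 without Ctrl replicate 7 (0.342%), Both_10Cyp replicate 7 (0.237%) or Both_10Cyp replicate 8 (0.181%). Without 4 libraries high in embryonic globin, chosen after the data were seen (Paternal_0.3Cyp replicates 3 and 4, Both_10Cyp replicates 7 and 8), Both_10Cyp had 0 calls (0.0699%). In Maternal_10Cyp no single library moved the count outside 33 to 38. With 2 surrogate variables in the fit, no member was called against Ctrl in any group, where 0%, 0%, 0%, 0.321%, 0.0697% and 0.0767% of all genes were called higher; all other settings tried are given with the limits at the end.

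The N module, where NADH is oxidised, held the 2 members of lowest p in the joint test, Ndufa6 and Ndufa2. Of its 10 genes, those called higher numbered 7 in Paternal_0.3Cyp, 3 in Maternal_0.3Cyp, 3 in Both_0.3Cyp, 7 in Paternal_10Cyp, 8 in Maternal_10Cyp and 3 in Both_10Cyp, and 4, 7, 7, 9, 9 and 7 in the same order without the library that stood apart. The group's median log2 fold change in Maternal_10Cyp was 0.33. Ndufa6 (ENSMUSG00000022450, chr15:82350140-82354322) encodes a small accessory subunit of the LYR-motif family, and it held 26.04 to 34.2 CPM (median 28.99) in Ctrl. Its levels at the dose labelled 0.3 were 30.3 to 40.03 in 11 Paternal_0.3Cyp libraries (69.8 in replicate 8, median of all 12 33.96), 28.1 to 40.4 (median 34.9) in Maternal_0.3Cyp and 29.4 to 38.3 (median 33.1) in Both_0.3Cyp. Ndufa6 levels at the dose labelled 10 were 27.1 to 42.8 (median 35.9) in Paternal_10Cyp, 37.9 to 48.8 (median 39.4) in Maternal_10Cyp and 30.5 to 43.4 (median 37.5) in Both_10Cyp. For Ndufa6, 6 of 12, 7 of 12 and 5 of 12 libraries of the groups at 0.3, and 6 of 10, 8 of 8 and 9 of 10 at 10, lay above the highest Ctrl library. Ndufa6 log2 fold changes at 0.3 were 0.36 ± 0.079 (SE) in Paternal_0.3Cyp (adjusted p = 0.00252; 0.24 ± 0.056 and 0.0122 without replicate 8), 0.24 ± 0.079 in Maternal_0.3Cyp (adjusted p = 0.0235) and 0.20 ± 0.079 in Both_0.3Cyp (adjusted p = 0.053). Ndufa6 log2 fold changes at 10 were 0.30 ± 0.083 in Paternal_10Cyp (adjusted p = 0.0101), 0.48 ± 0.087 in Maternal_10Cyp (adjusted p = 8.67e-05) and 0.36 ± 0.082 in Both_10Cyp (adjusted p = 0.0141). All 8 Maternal_10Cyp libraries were thus above all 12 Ctrl libraries. Such separation was not counted over all genes tested, of which 20.4% were called higher in that group. The genes described here and below were mostly chosen for a low p, so their separation is a description.

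Ndufa2 (ENSMUSG00000014294, chromosome 18), an accessory subunit with a thioredoxin-like fold, held 27.3 to 44.04 CPM in Ctrl (median 35.6). Ndufa2 levels at the dose labelled 0.3 were 32.7 to 49.4 in 11 Paternal_0.3Cyp libraries (104 in replicate 8, median of all 12 42.1), 35.1 to 47.1 (median 42.8) in Maternal_0.3Cyp and 38.7 to 49.8 (median 44.8) in Both_0.3Cyp. Ndufa2 levels at the dose labelled 10 were 32.7 to 49.9 (median 44.4) in Paternal_10Cyp, 45.7 to 54.2 (median 49.6) in Maternal_10Cyp and 38.3 to 49.8 (median 47.3) in Both_10Cyp. For Ndufa2, 5 of 12, 5 of 12 and 7 of 12 libraries of the groups at 0.3, and 6 of 10, 8 of 8 and 7 of 10 at 10, lay above the highest Ctrl library. The Maternal_10Cyp and Ctrl libraries did not overlap for this gene. Ndufa2 log2 fold changes at 0.3 were 0.41 ± 0.093 (SE) in Paternal_0.3Cyp (adjusted p = 0.00301; 0.23 ± 0.058 and 0.0134 without replicate 8), 0.25 ± 0.094 in Maternal_0.3Cyp (adjusted p = 0.0406) and 0.33 ± 0.093 in Both_0.3Cyp (adjusted p = 0.0122). Ndufa2 log2 fold changes at 10 were 0.30 ± 0.10 in Paternal_10Cyp (adjusted p = 0.0259), 0.48 ± 0.10 in Maternal_10Cyp (adjusted p = 0.000341) and 0.38 ± 0.10 in Both_10Cyp (adjusted p = 0.0266).

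Ndufs6 (ENSMUSG00000021606, chr13:73319838-73328542), the zinc-binding subunit added late in assembly, held 24.4 to 40.1 CPM in Ctrl (median 29.1). Ndufs6 levels at the dose labelled 0.3 were 27.2 to 41.8 in 11 Paternal_0.3Cyp libraries (75.5 in replicate 8, median of all 12 37.3), 24.9 to 42.2 (median 36.2) in Maternal_0.3Cyp and 28.5 to 44.8 (median 36.5) in Both_0.3Cyp. Ndufs6 levels at the dose labelled 10 were 23.9 to 47.98 (median 38.1) in Paternal_10Cyp, 33.4 to 48.9 (median 41.8) in Maternal_10Cyp and 31.8 to 44.1 (median 39.9) in Both_10Cyp. For Ndufs6, 4 of 12, 1 of 12 and 1 of 12 libraries of the groups at 0.3, and 3 of 10, 4 of 8 and 4 of 10 at 10, lay above the highest Ctrl library. Ctrl and every exposed group overlapped. Ndufs6 log2 fold changes at 0.3 were 0.35 ± 0.094 (SE) in Paternal_0.3Cyp (adjusted p = 0.00651; 0.19 ± 0.068 and 0.0443 without replicate 8), 0.24 ± 0.095 in Maternal_0.3Cyp (adjusted p = 0.0583) and 0.25 ± 0.094 in Both_0.3Cyp (adjusted p = 0.0488). Ndufs6 log2 fold changes at 10 were 0.30 ± 0.10 in Paternal_10Cyp (adjusted p = 0.027), 0.46 ± 0.10 in Maternal_10Cyp (adjusted p = 0.000537) and 0.39 ± 0.10 in Both_10Cyp (adjusted p = 0.0247). Ndufs6 overlaps Mrpl36 on the opposite strand, and whether counting used strand is not stated.

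Ndufa12 (ENSMUSG00000020022, chr10:94198720-94221443), a subunit whose relative Ndufaf2 holds its place during assembly, held 42.4 to 56.4 CPM in Ctrl (median 48.03). Ndufa12 levels at the dose labelled 0.3 were 43.9 to 67.8 in 11 Paternal_0.3Cyp libraries (101 in replicate 8, median of all 12 57.04), 45.7 to 62.1 (median 55.8) in Maternal_0.3Cyp and 47.4 to 64.2 (median 57.8) in Both_0.3Cyp. Ndufa12 levels at the dose labelled 10 were 42.1 to 69.98 (median 58.02) in Paternal_10Cyp, 57.5 to 67.4 (median 61.4) in Maternal_10Cyp and 45.3 to 61.7 (median 55.7) in Both_10Cyp. For Ndufa12, 6 of 12, 6 of 12 and 7 of 12 libraries of the groups at 0.3, and 5 of 10, 8 of 8 and 3 of 10 at 10, lay above the highest Ctrl library. Here too Maternal_10Cyp and Ctrl did not overlap. Ndufa12 log2 fold changes at 0.3 were 0.28 ± 0.069 (SE) in Paternal_0.3Cyp (adjusted p = 0.00389; 0.17 ± 0.049 and 0.0188 without replicate 8), 0.21 ± 0.070 in Maternal_0.3Cyp (adjusted p = 0.024) and 0.21 ± 0.069 in Both_0.3Cyp (adjusted p = 0.0273). Ndufa12 log2 fold changes at 10 were 0.22 ± 0.073 in Paternal_10Cyp (adjusted p = 0.0238), 0.35 ± 0.077 in Maternal_10Cyp (adjusted p = 0.000396) and 0.20 ± 0.072 in Both_10Cyp (adjusted p = 0.0727).

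Ndufv1 (ENSMUSG00000037916, chr19:4007384-4012806), the core subunit that binds NADH and the flavin, held 104 to 124 CPM in Ctrl (median 115). Ndufv1 levels at the dose labelled 0.3 were 111 to 135 in 11 Paternal_0.3Cyp libraries (204 in replicate 8, median of all 12 124), 109.7 to 131 (median 123) in Maternal_0.3Cyp and 113 to 146 (median 126) in Both_0.3Cyp. Ndufv1 levels at the dose labelled 10 were 111 to 143 (median 129) in Paternal_10Cyp, 128 to 156 (median 132) in Maternal_10Cyp and 106 to 137 (median 122) in Both_10Cyp. For Ndufv1, 6 of 12, 5 of 12 and 7 of 12 libraries of the groups at 0.3, and 6 of 10, 8 of 8 and 3 of 10 at 10, lay above the highest Ctrl library. The separation of Maternal_10Cyp from Ctrl was again complete. Ndufv1 log2 fold changes at 0.3 were 0.17 ± 0.052 (SE) in Paternal_0.3Cyp (adjusted p = 0.0141; 0.082 ± 0.034 and 0.0808 without replicate 8), 0.12 ± 0.053 in Maternal_0.3Cyp (adjusted p = 0.082) and 0.14 ± 0.052 in Both_0.3Cyp (adjusted p = 0.0517). Ndufv1 log2 fold changes at 10 were 0.17 ± 0.055 in Paternal_10Cyp (adjusted p = 0.0232), 0.24 ± 0.058 in Maternal_10Cyp (adjusted p = 0.00122) and 0.10 ± 0.055 in Both_10Cyp (adjusted p = 0.241). Of the remaining N-module genes in Maternal_10Cyp, the iron-sulfur subunit Ndufv2 rose by 0.34 ± 0.082 (adjusted p = 0.000886), the accessory subunits Ndufa7 by 0.31 ± 0.083 (0.00262) and Ndufs4 by 0.30 ± 0.083 (0.00333). Ndufs1, the largest iron-sulfur subunit, had 0.074 ± 0.041 (0.136) and passed the threshold in Paternal_10Cyp, at 0.10 ± 0.038 (0.0475). Ndufv3, an accessory subunit next to the flavin site, had 0.11 ± 0.075 (0.241) in Maternal_10Cyp and its highest log2 fold change, 0.13, missed the threshold as well.

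**Figure D3:**
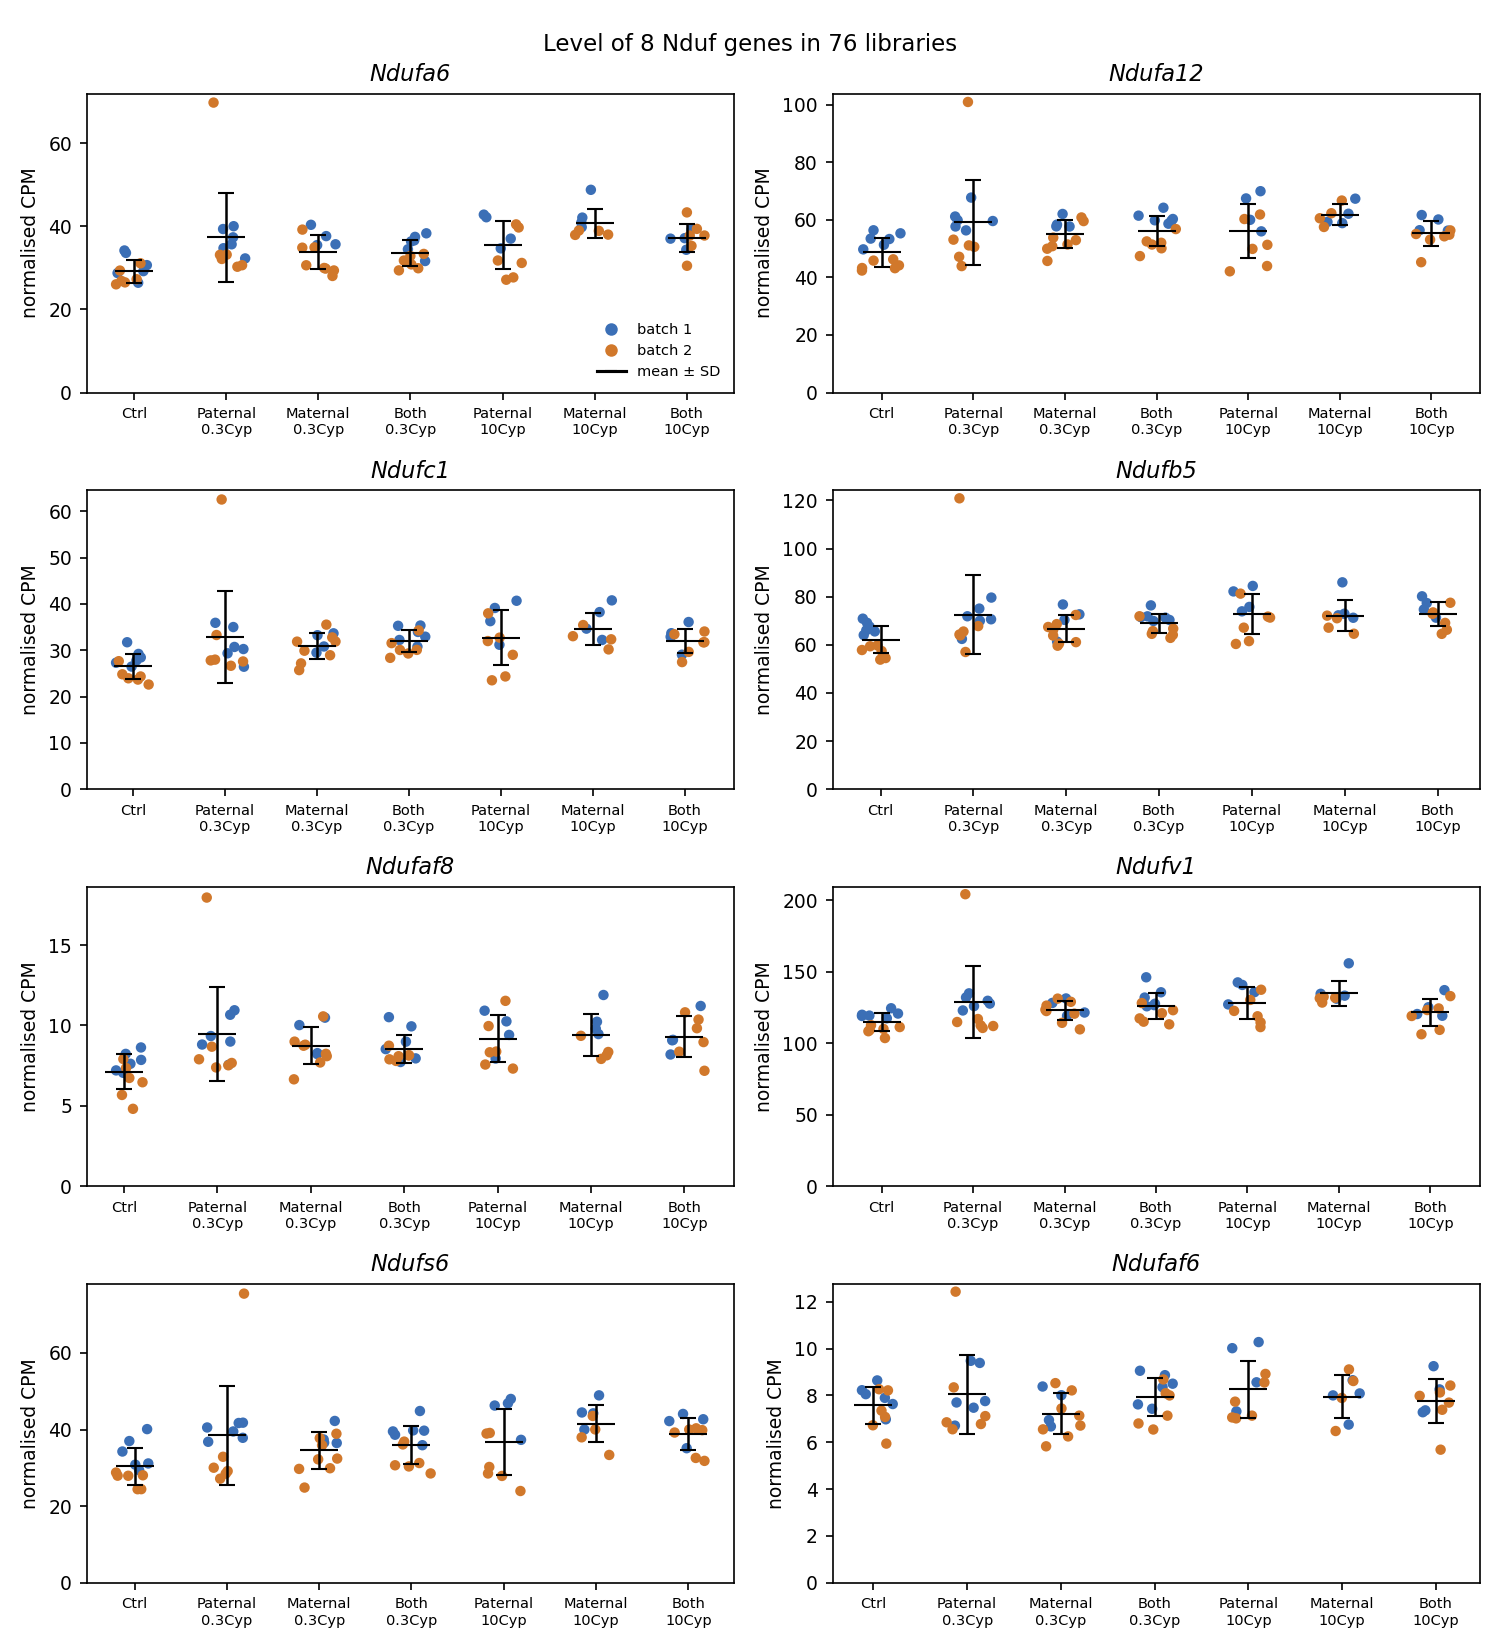
Normalised CPM (y axes, each on its own scale from 0) of 8 Nduf genes in the 76 libraries by group (x axis); points are libraries marked by batch, and bars give the group mean and SD. In Ndufa6, Ndufa12 and Ndufv1 every Maternal_10Cyp point lies above every Ctrl point, whereas Ndufaf6 shows overlapping groups throughout. Such separation was not counted over all genes tested.

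The Q module hands electrons to ubiquinone. Of its 6 genes, 6 in Paternal_0.3Cyp, 0 in Maternal_0.3Cyp, 0 in Both_0.3Cyp, 3 in Paternal_10Cyp, 5 in Maternal_10Cyp and 0 in Both_10Cyp were called higher, and 0, 3, 6, 5, 6 and 1 without the library that stood apart. Ndufs3 (ENSMUSG00000005510, chr2:90894634-90904827), a core subunit of the early assembly intermediate, held 58.2 to 71.8 CPM in Ctrl (median 64.5). Ndufs3 levels at the dose labelled 0.3 were 62.8 to 80.3 in 11 Paternal_0.3Cyp libraries (132 in replicate 8, median of all 12 69.8), 59.9 to 76.4 (median 67.2) in Maternal_0.3Cyp and 63.2 to 76.7 (median 70.2) in Both_0.3Cyp. Ndufs3 levels at the dose labelled 10 were 58.7 to 86.2 (median 75.9) in Paternal_10Cyp, 73.4 to 90.4 (median 77.8) in Maternal_10Cyp and 59.4 to 73.9 (median 69.7) in Both_10Cyp. For Ndufs3, 5 of 12, 4 of 12 and 5 of 12 libraries of the groups at 0.3, and 6 of 10, 8 of 8 and 2 of 10 at 10, lay above the highest Ctrl library. Maternal_10Cyp alone did not overlap Ctrl. Ndufs3 log2 fold changes at 0.3 were 0.21 ± 0.063 (SE) in Paternal_0.3Cyp (adjusted p = 0.0116; 0.10 ± 0.039 and 0.0682 without replicate 8), 0.091 ± 0.064 in Maternal_0.3Cyp (adjusted p = 0.292) and 0.11 ± 0.063 in Both_0.3Cyp (adjusted p = 0.211). Ndufs3 log2 fold changes at 10 were 0.19 ± 0.067 in Paternal_10Cyp (adjusted p = 0.0343), 0.28 ± 0.070 in Maternal_10Cyp (adjusted p = 0.00168) and 0.093 ± 0.066 in Both_10Cyp (adjusted p = 0.353). The direction of Ndufs3 turned with offsets for GC content and transcript length in Maternal_0.3Cyp (-0.023), Both_0.3Cyp (-0.015) and Both_10Cyp (-0.016), where it had not passed the threshold. It overlaps Kbtbd4 on the opposite strand.

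Ndufs7 (ENSMUSG00000020153, chr10:80249121-80256794), the core subunit that carries the last iron-sulfur cluster before ubiquinone, held 45.9 to 67.4 CPM in Ctrl (median 57.01). Ndufs7 levels at the dose labelled 0.3 were 51.9 to 72.2 in 11 Paternal_0.3Cyp libraries (120.1 in replicate 8, median of all 12 63.5), 45.6 to 68.7 (median 57.5) in Maternal_0.3Cyp and 52.6 to 70.9 (median 63.4) in Both_0.3Cyp. Ndufs7 levels at the dose labelled 10 were 50.01 to 72.7 (median 60.3) in Paternal_10Cyp, 62.01 to 71.9 (median 69.2) in Maternal_10Cyp and 53.01 to 67.6 (median 60.9) in Both_10Cyp. For Ndufs7, 3 of 12, 1 of 12 and 4 of 12 libraries of the groups at 0.3, and 3 of 10, 5 of 8 and 1 of 10 at 10, lay above the highest Ctrl library. Its groups overlapped Ctrl. Ndufs7 log2 fold changes at 0.3 were 0.23 ± 0.070 (SE) in Paternal_0.3Cyp (adjusted p = 0.0142; 0.11 ± 0.048 and 0.099 without replicate 8), 0.055 ± 0.071 in Maternal_0.3Cyp (adjusted p = 0.582) and 0.12 ± 0.070 in Both_0.3Cyp (adjusted p = 0.19). Ndufs7 log2 fold changes at 10 were 0.091 ± 0.074 in Paternal_10Cyp (adjusted p = 0.377), 0.25 ± 0.078 in Maternal_10Cyp (adjusted p = 0.00792) and 0.092 ± 0.073 in Both_10Cyp (adjusted p = 0.41). Its direction turned with those offsets in Maternal_0.3Cyp (-0.024), Paternal_10Cyp (-0.00955) and Both_10Cyp (-0.022), again where it had not passed. The core subunit Ndufs8 rose in Maternal_10Cyp by 0.25 ± 0.072 (adjusted p = 0.00416), and the accessory subunit Ndufa5 by 0.34 ± 0.11 (0.0112). Ndufa9, the accessory subunit that binds NADPH, had 0.12 ± 0.053 (0.0656) there and rose in Paternal_10Cyp by 0.13 ± 0.050 (0.0437). Of the 7 core subunits encoded in the nucleus, 5 in Paternal_0.3Cyp, 0 in Maternal_0.3Cyp, 0 in Both_0.3Cyp, 4 in Paternal_10Cyp, 6 in Maternal_10Cyp and 0 in Both_10Cyp were called higher, and 0, 3, 5, 6, 7 and 1 without the library that stood apart.

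The proximal membrane arm, which joins the Q module to the membrane, had the highest median in Maternal_10Cyp (0.36). Of its 9 genes, 8 in Paternal_0.3Cyp, 1 in Maternal_0.3Cyp, 1 in Both_0.3Cyp, 4 in Paternal_10Cyp, 8 in Maternal_10Cyp and 3 in Both_10Cyp were called higher, and 2, 7, 7, 7, 9 and 8 without the library that stood apart. Ndufc1 (ENSMUSG00000037152, chr3:51404677-51408988), a single-pass membrane subunit, held 22.6 to 31.7 CPM in Ctrl (median 26.9). Ndufc1 levels at the dose labelled 0.3 were 26.4 to 35.9 in 11 Paternal_0.3Cyp libraries (62.5 in replicate 8, median of all 12 29.8), 25.7 to 35.5 (median 31.3) in Maternal_0.3Cyp and 28.4 to 35.3 (median 31.9) in Both_0.3Cyp. Ndufc1 levels at the dose labelled 10 were 23.5 to 40.7 (median 32.4) in Paternal_10Cyp, 30.2 to 40.8 (median 33.8) in Maternal_10Cyp and 27.4 to 36.1 (median 32.3) in Both_10Cyp. For Ndufc1, 4 of 12, 6 of 12 and 6 of 12 libraries of the groups at 0.3, and 6 of 10, 7 of 8 and 6 of 10 at 10, lay above the highest Ctrl library. Overlap with Ctrl was thus limited to 1 library in Maternal_10Cyp. Ndufc1 log2 fold changes at 0.3 were 0.31 ± 0.082 (SE) in Paternal_0.3Cyp (adjusted p = 0.00557; 0.18 ± 0.059 and 0.0314 without replicate 8), 0.25 ± 0.083 in Maternal_0.3Cyp (adjusted p = 0.0254) and 0.27 ± 0.082 in Both_0.3Cyp (adjusted p = 0.0152). Ndufc1 log2 fold changes at 10 were 0.31 ± 0.086 in Paternal_10Cyp (adjusted p = 0.0101), 0.39 ± 0.091 in Maternal_10Cyp (adjusted p = 0.000745) and 0.28 ± 0.085 in Both_10Cyp (adjusted p = 0.0442).

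Ndufa1 (ENSMUSG00000016427, chrX:37187588-37191163), an X-linked subunit needed to anchor the membrane arm, held 15.04 to 25.2 CPM in Ctrl (median 20.5). Ndufa1 levels at the dose labelled 0.3 were 18.8 to 26.7 in 11 Paternal_0.3Cyp libraries (48.98 in replicate 8, median of all 12 23.04), 16.7 to 26.2 (median 22.5) in Maternal_0.3Cyp and 17.6 to 28.3 (median 22.6) in Both_0.3Cyp. Ndufa1 levels at the dose labelled 10 were 17.1 to 28.99 (median 23.1) in Paternal_10Cyp, 22.2 to 32.1 (median 27.1) in Maternal_10Cyp and 20.5 to 29.7 (median 25.4) in Both_10Cyp. For Ndufa1, 3 of 12, 1 of 12 and 2 of 12 libraries of the groups at 0.3, and 5 of 10, 6 of 8 and 5 of 10 at 10, lay above the highest Ctrl library. Its Ctrl libraries spread widely and overlapped every exposed group. Ndufa1 log2 fold changes at 0.3 were 0.32 ± 0.10 (SE) in Paternal_0.3Cyp (adjusted p = 0.0109; 0.19 ± 0.076 and 0.0777 without replicate 8), 0.17 ± 0.10 in Maternal_0.3Cyp (adjusted p = 0.196) and 0.14 ± 0.10 in Both_0.3Cyp (adjusted p = 0.263). Ndufa1 log2 fold changes at 10 were 0.20 ± 0.10 in Paternal_10Cyp (adjusted p = 0.125), 0.41 ± 0.11 in Maternal_10Cyp (adjusted p = 0.00167) and 0.35 ± 0.10 in Both_10Cyp (adjusted p = 0.0384). Under the GC and length offsets Ndufa1 turned in Maternal_0.3Cyp (-0.020), Both_0.3Cyp (-0.045) and Paternal_10Cyp (-0.044), which had not passed the threshold.

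Ndufc2 (ENSMUSG00000030647, chr7:97400003-97407802), the membrane partner of Ndufc1, held 57.5 to 79.7 CPM in Ctrl (median 66.1). Ndufc2 levels at the dose labelled 0.3 were 60.4 to 88.7 in 11 Paternal_0.3Cyp libraries (168 in replicate 8, median of all 12 77.96), 60.6 to 87.3 (median 75.3) in Maternal_0.3Cyp and 66.7 to 86.2 (median 80.2) in Both_0.3Cyp. Ndufc2 levels at the dose labelled 10 were 64.5 to 99.7 (median 84.4) in Paternal_10Cyp, 83.7 to 101 (median 88.2) in Maternal_10Cyp and 61.6 to 82.6 (median 79.2) in Both_10Cyp. For Ndufc2, 5 of 12, 4 of 12 and 6 of 12 libraries of the groups at 0.3, and 6 of 10, 8 of 8 and 5 of 10 at 10, lay above the highest Ctrl library. As in Ndufs3, Maternal_10Cyp did not overlap Ctrl. Ndufc2 log2 fold changes at 0.3 were 0.28 ± 0.085 (SE) in Paternal_0.3Cyp (adjusted p = 0.0123; 0.12 ± 0.052 and 0.0995 without replicate 8), 0.17 ± 0.085 in Maternal_0.3Cyp (adjusted p = 0.133) and 0.18 ± 0.085 in Both_0.3Cyp (adjusted p = 0.104). Ndufc2 log2 fold changes at 10 were 0.31 ± 0.089 in Paternal_10Cyp (adjusted p = 0.0132), 0.40 ± 0.094 in Maternal_10Cyp (adjusted p = 0.000777) and 0.20 ± 0.089 in Both_10Cyp (adjusted p = 0.13). In Maternal_10Cyp the accessory subunits Ndufa3 (0.45 ± 0.11, adjusted p = 0.00117), Ndufa13 (0.36 ± 0.10, 0.00313), also known as GRIM-19, Ndufs5 (0.31 ± 0.087, 0.00394), Ndufa8 (0.22 ± 0.069, 0.0094) and Ndufa11 (0.21 ± 0.073, 0.0179) rose. Ndufa10, a subunit related to nucleoside kinases, was the exception at 0.079 ± 0.039 (0.0986).

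Of the 11 genes of the distal membrane arm, 9 in Paternal_0.3Cyp, 0 in Maternal_0.3Cyp, 1 in Both_0.3Cyp, 7 in Paternal_10Cyp, 10 in Maternal_10Cyp and 2 in Both_10Cyp were called higher, and 3, 8, 9, 11, 10 and 10 without the library that stood apart; the median in Maternal_10Cyp was 0.24. Ndufb5 (ENSMUSG00000027673, chr3:32736990-32751566), a single-pass accessory subunit, held 53.9 to 70.9 CPM in Ctrl (median 61.9). Ndufb5 levels at the dose labelled 0.3 were 57.03 to 79.6 in 11 Paternal_0.3Cyp libraries (121 in replicate 8, median of all 12 68.9), 59.6 to 76.8 (median 66.8) in Maternal_0.3Cyp and 62.9 to 76.4 (median 70.1) in Both_0.3Cyp. Ndufb5 levels at the dose labelled 10 were 60.4 to 84.5 (median 72.8) in Paternal_10Cyp, 64.6 to 85.96 (median 71.7) in Maternal_10Cyp and 64.6 to 80.2 (median 73.2) in Both_10Cyp. For Ndufb5, 4 of 12, 3 of 12 and 5 of 12 libraries of the groups at 0.3, and 7 of 10, 6 of 8 and 7 of 10 at 10, lay above the highest Ctrl library. No group was clear of Ctrl. Ndufb5 log2 fold changes at 0.3 were 0.23 ± 0.061 (SE) in Paternal_0.3Cyp (adjusted p = 0.00631; 0.13 ± 0.040 and 0.0288 without replicate 8), 0.13 ± 0.061 in Maternal_0.3Cyp (adjusted p = 0.109) and 0.15 ± 0.061 in Both_0.3Cyp (adjusted p = 0.0606). Ndufb5 log2 fold changes at 10 were 0.25 ± 0.064 in Paternal_10Cyp (adjusted p = 0.00702), 0.22 ± 0.067 in Maternal_10Cyp (adjusted p = 0.00751) and 0.24 ± 0.063 in Both_10Cyp (adjusted p = 0.0295). Ndufb5 overlaps Mrpl47 on the opposite strand.

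Ndufb7 (ENSMUSG00000033938, chr8:83566671-83571626), a subunit on the intermembrane-space side, held 40.8 to 60.01 CPM in Ctrl (median 49.1). Ndufb7 levels at the dose labelled 0.3 were 47.5 to 66.1 in 11 Paternal_0.3Cyp libraries (119 in replicate 8, median of all 12 55.1), 44.1 to 58.4 (median 54.6) in Maternal_0.3Cyp and 46.8 to 65.9 (median 54.9) in Both_0.3Cyp. Ndufb7 levels at the dose labelled 10 were 45.4 to 64.1 (median 57.2) in Paternal_10Cyp, 53.9 to 74.9 (median 58.3) in Maternal_10Cyp and 50.4 to 63.4 (median 58.02) in Both_10Cyp. For Ndufb7, 3 of 12, 0 of 12 and 4 of 12 libraries of the groups at 0.3, and 5 of 10, 3 of 8 and 3 of 10 at 10, lay above the highest Ctrl library. Its groups overlapped Ctrl as well. Ndufb7 log2 fold changes at 0.3 were 0.33 ± 0.079 (SE) in Paternal_0.3Cyp (adjusted p = 0.00338; 0.19 ± 0.049 and 0.0148 without replicate 8), 0.16 ± 0.079 in Maternal_0.3Cyp (adjusted p = 0.128) and 0.21 ± 0.079 in Both_0.3Cyp (adjusted p = 0.0465). Ndufb7 log2 fold changes at 10 were 0.21 ± 0.083 in Paternal_10Cyp (adjusted p = 0.0614), 0.32 ± 0.087 in Maternal_10Cyp (adjusted p = 0.003) and 0.25 ± 0.082 in Both_10Cyp (adjusted p = 0.0611).

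Ndufb11 (ENSMUSG00000031059, chrX:20615326-20617619), the other X-linked member, held 65.99 to 86.6 CPM in Ctrl (median 70.9). Ndufb11 levels at the dose labelled 0.3 were 69.9 to 92.04 in 11 Paternal_0.3Cyp libraries (165 in replicate 8, median of all 12 80.98), 69.9 to 95.3 (median 80.6) in Maternal_0.3Cyp and 69.9 to 97.5 (median 82.5) in Both_0.3Cyp. Ndufb11 levels at the dose labelled 10 were 68.7 to 104 (median 85.05) in Paternal_10Cyp, 78.8 to 103 (median 86.98) in Maternal_10Cyp and 71.2 to 87.7 (median 83.6) in Both_10Cyp. For Ndufb11, 3 of 12, 4 of 12 and 3 of 12 libraries of the groups at 0.3, and 5 of 10, 4 of 8 and 1 of 10 at 10, lay above the highest Ctrl library. Ndufb11 log2 fold changes at 0.3 were 0.27 ± 0.073 (SE) in Paternal_0.3Cyp (adjusted p = 0.00653; 0.14 ± 0.047 and 0.035 without replicate 8), 0.19 ± 0.073 in Maternal_0.3Cyp (adjusted p = 0.0512) and 0.18 ± 0.073 in Both_0.3Cyp (adjusted p = 0.0642). Ndufb11 log2 fold changes at 10 were 0.21 ± 0.077 in Paternal_10Cyp (adjusted p = 0.0423), 0.28 ± 0.081 in Maternal_10Cyp (adjusted p = 0.00481) and 0.16 ± 0.076 in Both_10Cyp (adjusted p = 0.149). It overlaps Rbm10 on the opposite strand. Among the remaining distal subunits in Maternal_10Cyp, log2 fold changes were 0.33 for Ndufb3, 0.30 for Ndufb6, 0.29 for Ndufb9, 0.24 for Ndufb2, 0.24 for Ndufb8 and 0.21 for Ndufb10, all called higher (adjusted p = 0.00219 to 0.0224). Ndufab1, the mitochondrial acyl carrier protein, rose by 0.20 ± 0.070 (0.0209), and Ndufb4 had 0.12 ± 0.082 (0.264).

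The assembly factors differed among themselves. Of 8 genes, 2 in Paternal_0.3Cyp, 2 in Maternal_0.3Cyp, 1 in Both_0.3Cyp, 3 in Paternal_10Cyp, 3 in Maternal_10Cyp and 1 in Both_10Cyp were called higher, and 1, 2, 1, 4, 3 and 2 without the library that stood apart, with a median of 0.091 in Maternal_10Cyp. Ndufaf8 (ENSMUSG00000078572, chr11:120098928-120100705), the partner that stabilises Ndufaf5, held 4.805 to 8.62 CPM in Ctrl (median 7.27). Ndufaf8 levels at the dose labelled 0.3 were 7.38 to 10.9 in 11 Paternal_0.3Cyp libraries (17.95 in replicate 8, median of all 12 8.74), 6.64 to 10.6 (median 8.501) in Maternal_0.3Cyp and 7.72 to 10.5 (median 8.14) in Both_0.3Cyp. Ndufaf8 levels at the dose labelled 10 were 7.31 to 11.5 (median 8.89) in Paternal_10Cyp, 7.91 to 11.9 (median 9.404) in Maternal_10Cyp and 7.17 to 11.2 (median 9.08) in Both_10Cyp. For Ndufaf8, 7 of 12, 6 of 12 and 4 of 12 libraries of the groups at 0.3, and 5 of 10, 5 of 8 and 7 of 10 at 10, lay above the highest Ctrl library. Ctrl and exposed libraries overlapped. Ndufaf8 log2 fold changes at 0.3 were 0.41 ± 0.10 (SE) in Paternal_0.3Cyp (adjusted p = 0.00333; 0.27 ± 0.077 and 0.019 without replicate 8), 0.32 ± 0.10 in Maternal_0.3Cyp (adjusted p = 0.0153) and 0.26 ± 0.10 in Both_0.3Cyp (adjusted p = 0.0412). Ndufaf8 log2 fold changes at 10 were 0.38 ± 0.10 in Paternal_10Cyp (adjusted p = 0.00881), 0.40 ± 0.11 in Maternal_10Cyp (adjusted p = 0.00248) and 0.40 ± 0.10 in Both_10Cyp (adjusted p = 0.0226).

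Ndufaf2 (ENSMUSG00000068184, chr13:108002715-108158623), which acts late in the docking of the N module, held 13.8 to 20.2 CPM in Ctrl (median 16.2). Ndufaf2 levels at the dose labelled 0.3 were 15.5 to 19.2 in 11 Paternal_0.3Cyp libraries (32.2 in replicate 8, median of all 12 17.7), 15.9 to 22.7 (median 18.1) in Maternal_0.3Cyp and 14.5 to 22.4 (median 17.7) in Both_0.3Cyp. Ndufaf2 levels at the dose labelled 10 were 14.6 to 23.4 (median 19.1) in Paternal_10Cyp, 18.3 to 21.1 (median 19.3) in Maternal_10Cyp and 16.4 to 20.8 (median 19.1) in Both_10Cyp. For Ndufaf2, 1 of 12, 4 of 12 and 2 of 12 libraries of the groups at 0.3, and 4 of 10, 3 of 8 and 2 of 10 at 10, lay above the highest Ctrl library. Ndufaf2 log2 fold changes at 0.3 were 0.19 ± 0.077 (SE) in Paternal_0.3Cyp (adjusted p = 0.0537; 0.085 ± 0.061 and 0.334 without replicate 8), 0.21 ± 0.078 in Maternal_0.3Cyp (adjusted p = 0.0434) and 0.12 ± 0.077 in Both_0.3Cyp (adjusted p = 0.255). Ndufaf2 log2 fold changes at 10 were 0.22 ± 0.081 in Paternal_10Cyp (adjusted p = 0.0409), 0.26 ± 0.086 in Maternal_10Cyp (adjusted p = 0.0132) and 0.21 ± 0.080 in Both_10Cyp (adjusted p = 0.0908). The offsets turned the direction of Ndufaf2 in Paternal_0.3Cyp (-0.020), Both_0.3Cyp (-0.040) and Maternal_10Cyp (-0.00983), the last of which had passed the threshold without them. Ndufaf3 and Ndufaf4 act together on the early Q-module intermediate. Ndufaf3 rose in Maternal_10Cyp (0.21 ± 0.066, adjusted p = 0.00856), and Ndufaf4 rose in Paternal_10Cyp (0.17 ± 0.057, 0.0324) and had 0.064 ± 0.061 (0.416) in Maternal_10Cyp. In that group Ndufaf5, which hydroxylates Ndufs7, had 0.012 ± 0.086 (0.924), Ndufaf7, a methyltransferase, 0.091 ± 0.070 (0.3), Ndufaf1, a membrane-arm assembly factor, 0.090 ± 0.076 (0.352), and Ndufaf6, needed early in assembly, 0.073 ± 0.088 (0.532). None of these 4 passed the threshold in any group in either fit.

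Of the Nduf-named genes outside complex I, Ndufa4 (ENSMUSG00000029632, chr6:11900292-11907497), whose product is found with cytochrome c oxidase, held 71.6 to 101 CPM in Ctrl (median 85.04). Ndufa4 levels at the dose labelled 0.3 were 81.6 to 107 in 11 Paternal_0.3Cyp libraries (182 in replicate 8, median of all 12 94.1), 82.3 to 114 (median 87.2) in Maternal_0.3Cyp and 86.2 to 104 (median 90.8) in Both_0.3Cyp. Ndufa4 levels at the dose labelled 10 were 80.6 to 121 (median 98.7) in Paternal_10Cyp, 98.2 to 123 (median 103) in Maternal_10Cyp and 84.3 to 111 (median 98.0) in Both_10Cyp. For Ndufa4, 2 of 12, 3 of 12 and 2 of 12 libraries of the groups at 0.3, and 4 of 10, 5 of 8 and 3 of 10 at 10, lay above the highest Ctrl library. Ndufa4 log2 fold changes at 0.3 were 0.22 ± 0.071 (SE) in Paternal_0.3Cyp (adjusted p = 0.0179; 0.10 ± 0.048 and 0.13 without replicate 8), 0.12 ± 0.071 in Maternal_0.3Cyp (adjusted p = 0.191) and 0.12 ± 0.071 in Both_0.3Cyp (adjusted p = 0.22). Ndufa4 log2 fold changes at 10 were 0.23 ± 0.074 in Paternal_10Cyp (adjusted p = 0.0253), 0.29 ± 0.078 in Maternal_10Cyp (adjusted p = 0.00279) and 0.19 ± 0.074 in Both_10Cyp (adjusted p = 0.0888). With offsets for GC content and transcript length the Ndufa4 values were -0.032, -0.074, -0.068, -0.034, -0.036 and -0.053, so its direction turned in all 6 groups, and in Maternal_0.3Cyp the lower value passed the threshold (adjusted p = 0.0496, edgeR).

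Ndufa4l2 (ENSMUSG00000040280, chr10:127514967-127517154), a relative of Ndufa4 that is known to be induced by hypoxia, was the lowest member and held 3.495 to 7.04 CPM in Ctrl (median 5.17). Ndufa4l2 levels at the dose labelled 0.3 were 3.46 to 8.496 in 11 Paternal_0.3Cyp libraries (10.3 in replicate 8, median of all 12 5.497), 3.44 to 8.44 (median 5.81) in Maternal_0.3Cyp and 3.903 to 7.36 (median 5.56) in Both_0.3Cyp. Ndufa4l2 levels at the dose labelled 10 were 4.07 to 7.65 (median 5.11) in Paternal_10Cyp, 4.68 to 7.43 (median 5.88) in Maternal_10Cyp and 4.23 to 8.26 (median 5.70) in Both_10Cyp. For Ndufa4l2, 3 of 12, 4 of 12 and 1 of 12 libraries of the groups at 0.3, and 1 of 10, 1 of 8 and 1 of 10 at 10, lay above the highest Ctrl library. Ndufa4l2 log2 fold changes at 0.3 were 0.20 ± 0.13 (SE) in Paternal_0.3Cyp (adjusted p = 0.246; 0.11 ± 0.13 and 0.585 without replicate 8), 0.21 ± 0.13 in Maternal_0.3Cyp (adjusted p = 0.227) and 0.095 ± 0.13 in Both_0.3Cyp (adjusted p = 0.623). Ndufa4l2 log2 fold changes at 10 were 0.026 ± 0.14 in Paternal_10Cyp (adjusted p = 0.911), 0.21 ± 0.15 in Maternal_10Cyp (adjusted p = 0.262) and 0.12 ± 0.14 in Both_10Cyp (adjusted p = 0.583). It passed the threshold in no group, and its direction changed with the setting in Both_0.3Cyp, Paternal_10Cyp and Both_10Cyp. It overlaps Shmt2 on the opposite strand.

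The rest of the respiratory chain was set beside the Nduf genes through lists of named genes. Of all genes tested, 15.4%, 10.9%, 10.5%, 10.7%, 20.4% and 2.34% were called higher (Paternal_0.3Cyp, Maternal_0.3Cyp, Both_0.3Cyp, Paternal_10Cyp, Maternal_10Cyp, Both_10Cyp). Without Paternal_0.3Cyp replicate 8 these shares were 8.54%, 16.1%, 16%, 15.9%, 23% and 8.9%. Of 38 nuclear subunits of complexes II to V, 31 in Paternal_0.3Cyp, 6 in Maternal_0.3Cyp, 8 in Both_0.3Cyp, 23 in Paternal_10Cyp, 35 in Maternal_10Cyp and 9 in Both_10Cyp were called higher, with medians of 0.20, 0.13, 0.12, 0.19, 0.23 and 0.16, and 8, 29, 32, 33, 35 and 26 without the library that stood apart. Atp5k, a small ATP synthase subunit, rose by 0.67 ± 0.13 in Maternal_10Cyp (adjusted p = 0.000138) and 0.69 ± 0.12 in Both_10Cyp (0.000445). Atp5j, another ATP synthase subunit, rose by 0.39 ± 0.073 in Maternal_10Cyp (0.000119), and Uqcrc2, a core subunit of complex III, by 0.12 ± 0.033 (0.00232). Across the 76 libraries, after group, batch and sex means were removed, the summed Nduf level followed the summed level of complexes II to V (r = 0.987, rho = 0.969; 0.966 and 0.964 without Paternal_0.3Cyp replicate 8).

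The 7 mitochondrially encoded complex I genes were mostly not called. Of them, 0 in Paternal_0.3Cyp, 0 in Maternal_0.3Cyp, 0 in Both_0.3Cyp, 0 in Paternal_10Cyp, 1 in Maternal_10Cyp and 1 in Both_10Cyp were called higher, and medians were -0.024, 0.039, 0.041, 0.12, 0.020 and 0.081. The gene called was mt-Nd4l, at 0.41 ± 0.15 in Maternal_10Cyp (adjusted p = 0.0187) and 0.81 ± 0.14 in Both_10Cyp (0.000417). The overlapping gene mt-Nd4 had 0.020 ± 0.082 (0.87) and mt-Nd1 0.10 ± 0.068 (0.245) in Maternal_10Cyp. Across libraries, the summed mitochondrially encoded and nuclear levels were related at r = -0.0545 and rho = 0.211, and at r = 0.332 and rho = 0.351 without Paternal_0.3Cyp replicate 8. Without that library mt-Nd1 was also called higher, in Paternal_10Cyp (0.16 ± 0.063, adjusted p = 0.0426), and mt-Nd4l in the same 2 groups as before.

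Of 13 further genes with a known part in complex I assembly, 7 in Paternal_0.3Cyp, 8 in Maternal_0.3Cyp, 5 in Both_0.3Cyp, 6 in Paternal_10Cyp, 8 in Maternal_10Cyp and 2 in Both_10Cyp were called higher and none lower. The counts without Paternal_0.3Cyp replicate 8 were 5, 9, 7, 7, 9 and 7, again with none lower. Lyrm2, a LYR-motif protein tied to the N module, rose by 0.40 ± 0.064 in Maternal_10Cyp (adjusted p = 5.33e-05), Dmac1, a membrane-arm assembly factor, by 0.40 ± 0.078 (0.000172) and Timmdc1, another, by 0.23 ± 0.055 (0.00101). Of 12 regulators of mitochondrial genes, 2, 3, 3, 2, 4 and 1 were higher and 0, 1, 1, 0, 2 and 0 lower in the same order of groups, and 1, 3, 3, 3, 5 and 2 higher and 0, 1, 1, 0, 2 and 0 lower without that library. In Maternal_10Cyp the nuclear receptor Esrra rose by 0.31 ± 0.058 (0.000131), Nrf1 by 0.22 ± 0.055 (0.00144) and Gabpb1, a subunit of GABP, by 0.23 ± 0.067 (0.00552). These are the 3 of lowest joint p, and the 2 lower genes are not named. In Maternal_10Cyp 20.4% of all genes tested were higher and 20.4% lower. After group, batch and sex means were removed, the summed level of the regulators was related to the summed Nduf level at r = -0.0266 (rho = -0.161). Without Paternal_0.3Cyp replicate 8 the values were -0.177 (-0.2).

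Short transcripts as a class moved with the Nduf genes. Of the 46 genes, 26 have transcripts under 1000 bases, and their median log2 fold changes were 0.24, 0.16, 0.15, 0.21, 0.30 and 0.21 (Paternal_0.3Cyp, Maternal_0.3Cyp, Both_0.3Cyp, Paternal_10Cyp, Maternal_10Cyp, Both_10Cyp), against 0.14, 0.092, 0.099, 0.15, 0.20 and 0.095 for the 20 longer ones. All 832 tested genes with transcripts under 1000 bases had medians of 0.21, 0.15, 0.16, 0.18, 0.25 and 0.16, and 48.1%, 22.5%, 23.9%, 31.4%, 53.6% and 13.6% of them were called higher. Of 803 tested genes under 1000 bases other than Nduf genes, 19.9%, 42.5%, 45.2%, 47.7%, 58.4% and 40% were called higher without Paternal_0.3Cyp replicate 8. Across genes, fold change and transcript length were related at a Spearman correlation of -0.491 to -0.67 in the 46 genes and -0.36 to -0.475 in all genes, which are not independent replicates. With offsets for GC content and transcript length in the fit, 9, 3, 2, 6, 15 and 7 of the 46 genes were called higher, beside 11%, 8.89%, 9.82%, 6.34%, 18.6% and 2.28% of all genes tested. In Maternal_0.3Cyp and Both_0.3Cyp the members' share was thus no higher than that of all genes. The 3 in Maternal_0.3Cyp were Ndufa13, Ndufaf8 and Ndufa12, and the 2 in Both_0.3Cyp Ndufa2 and Ndufc1. Called lower with the offsets were Ndufaf6 (-0.18, adjusted p = 0.0293, edgeR) and Ndufa4 in Maternal_0.3Cyp and Ndufaf5 (-0.17, adjusted p = 0.038, edgeR) in Maternal_10Cyp, and no other member in any group. The medians over the 46 genes fell from 0.21, 0.12, 0.12, 0.19, 0.26 and 0.17 to 0.041, 0.011, 0.020, 0.056, 0.064 and 0.034, and 34, 26, 27, 34, 34 and 35 of the 46 had a value above 0.

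Per library, genes with transcripts under 1000 bases other than Nduf genes (870 of them) took 5.98% ± 0.463 of counts in Ctrl (SD, n = 12), 6.99% ± 0.382 in Maternal_10Cyp (n = 8) and 6.50% to 6.75% in the other groups on average. The summed Nduf level followed this share, after group, batch and sex means were removed, at r = 0.961 and rho = 0.901 over 76 libraries. The value was r = 0.912 without Paternal_0.3Cyp replicate 8, 0.91 without the 2 farthest libraries, 0.907 in batch 1 (34 libraries) and 0.927 in batch 2 without that library (41). The part of transcript length in the result was not tested on its own. The offsets above took length and GC content together. They were fitted in each library without regard to group, so they can also take up group differences that go with either.

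**Figure D4:**
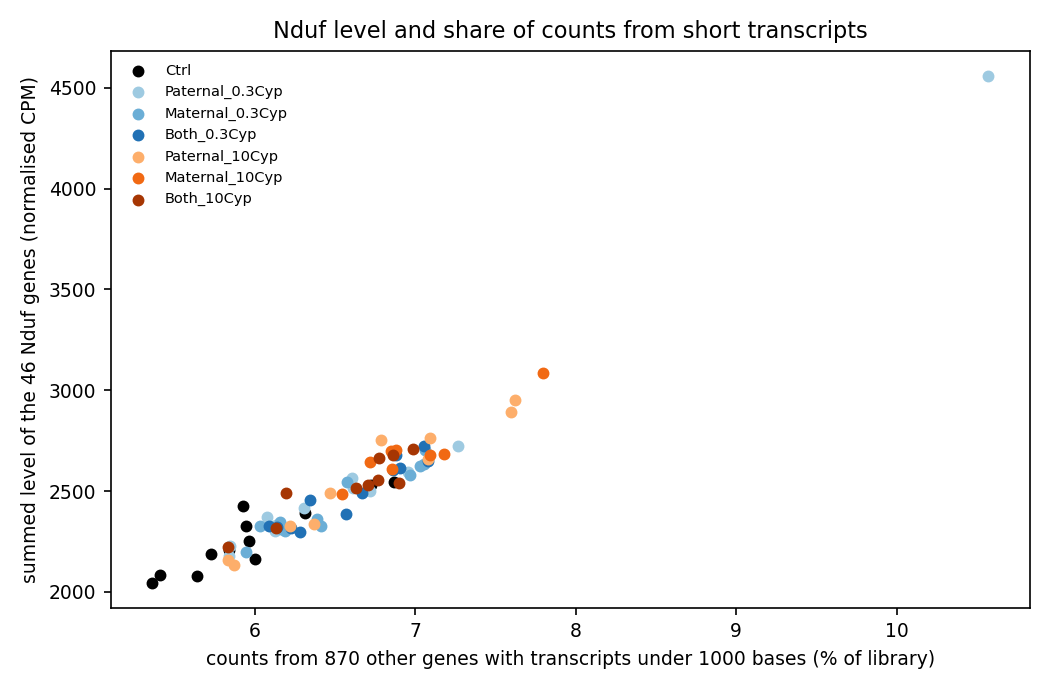
Summed level of the 46 Nduf genes (y axis, normalised CPM) against the share of counts from 870 other genes with transcripts under 1000 bases (x axis, percent of the library), 1 point per library, coloured by group. Points run from 5.36% to 7.79% along one band, and Paternal_0.3Cyp replicate 8 lies beyond them at 10.6% and 4559 CPM.

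Markers of cell types moved with the groups too. Of 12 genes of cycling progenitors, 10 in Paternal_0.3Cyp, 9 in Maternal_0.3Cyp, 9 in Both_0.3Cyp, 8 in Paternal_10Cyp, 9 in Maternal_10Cyp and 3 in Both_10Cyp were called higher, and their summed level was 555 ± 136 CPM in Ctrl (417 to 861) and 769 ± 90.3 in Maternal_10Cyp (640.5 to 893). Of 10 genes of maturing neurons, 7, 7, 6, 6, 7 and 2 were lower in that order, with sums of 2687 ± 313 CPM in Ctrl (2044 to 3092) and 2131 ± 130.5 in Maternal_10Cyp (1992 to 2327). Of 10 radial glia genes, 5, 4, 4, 1, 5 and 0 were higher and 2, 2, 2, 1, 2 and 1 lower, with sums of 1521 ± 92.6 CPM in Ctrl (1411 to 1687) and 1687 ± 116 in Maternal_10Cyp (1614 to 1955), and mean sums of 1590 to 1706 over the 6 exposed groups. All 5 genes of oligodendrocyte precursors were lower in Maternal_10Cyp. Their summed level was 153.7 ± 36.0 CPM in Ctrl, and its means in the 6 exposed groups were 119.1, 111, 114.2, 113.3, 100.1 and 125.6 in the same order. Of all genes tested, 15.4%, 10.9%, 10.5%, 10.7%, 20.4% and 2.34% were higher in that order. The shares of all genes that were lower were 12.2%, 12.8%, 11.8%, 10.8%, 20.4% and 1.58%. Of 9 red blood cell genes tested, 7, 2, 2, 3, 0 and 1 were higher, with sums of 1613 ± 221 CPM in Ctrl and 1832 ± 289 in Maternal_10Cyp. When Paternal_0.3Cyp replicate 8 was left out, the genes called higher numbered 10, 9, 9, 8, 9 and 6 for cycling progenitors, 4, 4, 5, 2, 6 and 1 for radial glia and 4, 3, 3, 4, 1 and 2 for red blood cells, and those called lower 6, 7, 7, 6, 7 and 3 for neurons.

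Across the 76 libraries, after group, batch and sex means were removed, the summed Nduf level was related to red blood cell genes at r = 0.643 (rho = 0.487), to early astrocyte genes at -0.456 (-0.505), to radial glia genes at 0.443 (0.294), to cycling progenitor genes at 0.0946 (0.0721) and to neuronal genes at -0.0868 (-0.229). Over the 75 libraries without Paternal_0.3Cyp replicate 8 these were 0.455 (0.468), -0.499 (-0.523), 0.157 (0.162), -0.00276 (0.0099) and -0.164 (-0.202) in the same order. The part of these shifts in the Nduf differences was not tested, apart from a fit with globin type (log ratio of embryonic over adult globin genes) as a covariate, which called 1, 0, 0, 20, 34 and 6 Nduf genes higher. In that fit 0.202%, 0.565%, 0.0349%, 8.26%, 14.6% and 0.53% of all genes were called higher, so calls became few over all genes in the groups at 0.3 and in Both_10Cyp.

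Levels also differed between the batches. In batch 2 against batch 1, 27 of the 46 genes were lower and none higher (12.3% of all genes tested were lower), with a median of -0.11, and 41 were lower (19.7%) without Paternal_0.3Cyp replicate 8. The lowest p was that of Ndufs6, at -0.26 ± 0.05 (adjusted p = 0.000257). Within batch 1, no member was called higher in any of the 6 groups, where 0.00697%, 0%, 0%, 0%, 0.0907% and 0% of all genes were (Paternal_0.3Cyp, Maternal_0.3Cyp, Both_0.3Cyp, Paternal_10Cyp, Maternal_10Cyp, Both_10Cyp), and medians were 0.077, 0.082, 0.14, 0.24, 0.20 and 0.13. Within batch 2, 37, 3, 0, 2, 31 and 11 were called (11.6%, 11.5%, 6.52%, 9.99%, 18% and 10.9% of all genes), with medians of 0.33, 0.18, 0.14, 0.18, 0.31 and 0.22. The 3 in Maternal_0.3Cyp were Ndufa12, Ndufaf8 and Ndufc1, and the 2 in Paternal_10Cyp were Ndufaf8 and Ndufb5.

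Without Paternal_0.3Cyp replicate 8, the calls within batch 1 were 0, 0, 0, 13, 20 and 0 (0.0279%, 0%, 0%, 1.49%, 4.82% and 0% of all genes). Those within batch 2 were 0, 25, 13, 24, 36 and 29 (0.014%, 16.6%, 13.3%, 15.3%, 21% and 16.1%), and the median of Paternal_0.3Cyp in batch 2 was 0.11. In Maternal_10Cyp, members were thus called within each batch only once that library was left out, with medians of 0.21 and 0.31.

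The difference between the batches' effects was not called for any member in any group, where 0%, 0%, 0%, 0.00697%, 0% and 0% of all genes were. At an unadjusted p under 0.05 there were 12, 1, 0, 0, 0 and 0 members, DESeq2 called none, and limma voom called 2 in Maternal_10Cyp, of which Ndufa12 had 0.29 (adjusted p = 0.0481). The share of all genes that limma voom called there is not given. The medians of that difference, batch 2 minus batch 1, were 0.24, 0.094, -0.0095, -0.044, 0.12 and 0.084, and 0.012 in Paternal_0.3Cyp without replicate 8. When the libraries of a single batch were fitted alone, 0, 0, 0, 12, 15 and 0 members were called higher in batch 1 (0.028%, 0%, 0%, 1.15%, 2.52% and 0% of all genes), and 18, 0, 0, 0, 17 and 5 in batch 2 (6%, 7.98%, 5.04%, 7.57%, 13.9% and 8.11%).

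Doses and parents were compared without Ctrl, and edgeR called no member with all libraries in any of the 5 comparisons. Between Maternal_10Cyp and Maternal_0.3Cyp the median log2 difference was 0.13 (0% of all genes tested were called), and 11 members had an unadjusted p under 0.05. Of these, limma voom called Ndufc2 (0.25, adjusted p = 0.0235), Ndufs3 (0.19, 0.0187) and Ndufa6 (0.24, 0.0373). Between Paternal_10Cyp and Paternal_0.3Cyp the median was -0.017 (0.0628% of all genes were called; 1 member with an unadjusted p under 0.05). Without replicate 8 of Paternal_0.3Cyp it was 0.090, and Ndufc2 was called (0.19, adjusted p = 0.0442; 1.84% of all genes were called).

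Both_10Cyp against Both_0.3Cyp had a median of 0.037 (0.00697% of all genes were called; 1 member with an unadjusted p under 0.05). Exposed mothers against exposed fathers had medians of -0.080 at 0.3 (0.00697%; 2 members with an unadjusted p under 0.05) and 0.074 at 10 (0%; 2 members). Without Paternal_0.3Cyp replicate 8, the median at 0.3 was 0.042. DESeq2 called no member in any of the 5, and limma voom none beyond the 3 named. The larger count of calls in Maternal_10Cyp was thus not matched by a difference between doses or parents in edgeR or DESeq2, and in limma voom by those 3 genes between the doses.

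The parents' effects were tested for adding up. At 10, the level with both parents exposed fell short of the sum of the 2 single-parent effects (both minus mother minus father plus Ctrl, on the log2 scale) in 18 of 46 genes, and exceeded it in none (13.3% of all genes tested were lower). The median over the 46 was -0.27. Without Paternal_0.3Cyp replicate 8, the count was 37 (17.5%) and the median -0.27. By role, the 18 comprised 8 of 10 N-module genes, 3 of 6 in the Q module, 2 of 9 proximal and 2 of 11 distal membrane-arm genes, 2 of 8 assembly factors and 1 of the 2 genes outside the complex.

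The 18 calls at 10 moved with the fit. No member was called with 2 surrogate variables (0.321% of all genes were lower) or in batch 2 alone (1.45%), 6 were with offsets for GC content and transcript length (9.25%), 8 with the replicate block (8.63%) and 12 in batch 1 alone (2.61%). The median over the 46 was -0.15 with the surrogate variables, -0.29 in batch 2 alone, -0.070 with the offsets, -0.19 with the block and -0.28 in batch 1 alone.

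Other gene lists moved in the same contrast. Complexes II to V had 23 of 38 genes lower (median -0.28), and the other complex I assembly genes 7 of 13 (-0.21). None of the 7 mitochondrially encoded complex I genes was called (-0.026). Of the cycling-progenitor markers 9 of 12 were lower (-0.58), and of the radial-glia markers 3 of 10 were lower and 2 higher (-0.27). Markers called higher were 6 of 10 for neurons (0.44), 4 of 5 for oligodendrocyte precursors (0.75), 3 of 5 for early astrocytes (0.58) and 2 of 7 for endothelial cells (0.38). Over all 14339 genes tested, 2001 were higher and 1903 (13.3%) lower, with a median of 0.023. The part of these cell types in the Nduf result was not tested.

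The lowest adjusted p values were those of Ndufc2 (-0.51 ± 0.13, SE; adjusted p = 0.00545), Ndufv1 (-0.31 ± 0.082; 0.00558) and Ndufs3 (-0.37 ± 0.10; 0.00597). For Ndufc2, mean levels were 67.97 CPM in Ctrl, 82.8 in Paternal_10Cyp, 89.1 in Maternal_10Cyp and 77.0 in Both_10Cyp, so the level with both parents exposed lay below that with either parent alone. At 0.3, the median was -0.22, and -0.088 without Paternal_0.3Cyp replicate 8. There edgeR called no member (0% of all genes), with 26 at an unadjusted p under 0.05, limma voom called none, and DESeq2 called Ndufa6 (-0.40, adjusted p = 0.0469). The share of all genes that DESeq2 called there is not given. The nearest by edgeR were Ndufa6 (-0.40 ± 0.11; adjusted p = 0.0756) and Ndufaf8 (-0.47 ± 0.14; 0.0763). The contrasts at the 2 doses share the Ctrl libraries. At 0.3, leaving out Ctrl replicate 6 or Paternal_0.3Cyp replicate 1 or 2 gave 2 calls (Ndufa6 and Ndufaf8; 4.4%, 2.86% and 5.43% of all genes were called), and leaving out Paternal_0.3Cyp replicate 9 gave 3 (also Ndufa12; 8.14%). At 10, leaving out Paternal_10Cyp replicate 9 or 10 gave 28 (15.7% and 14.5% of all genes were lower), and leaving out Maternal_10Cyp replicate 1 gave 12.

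**Figure D5:**
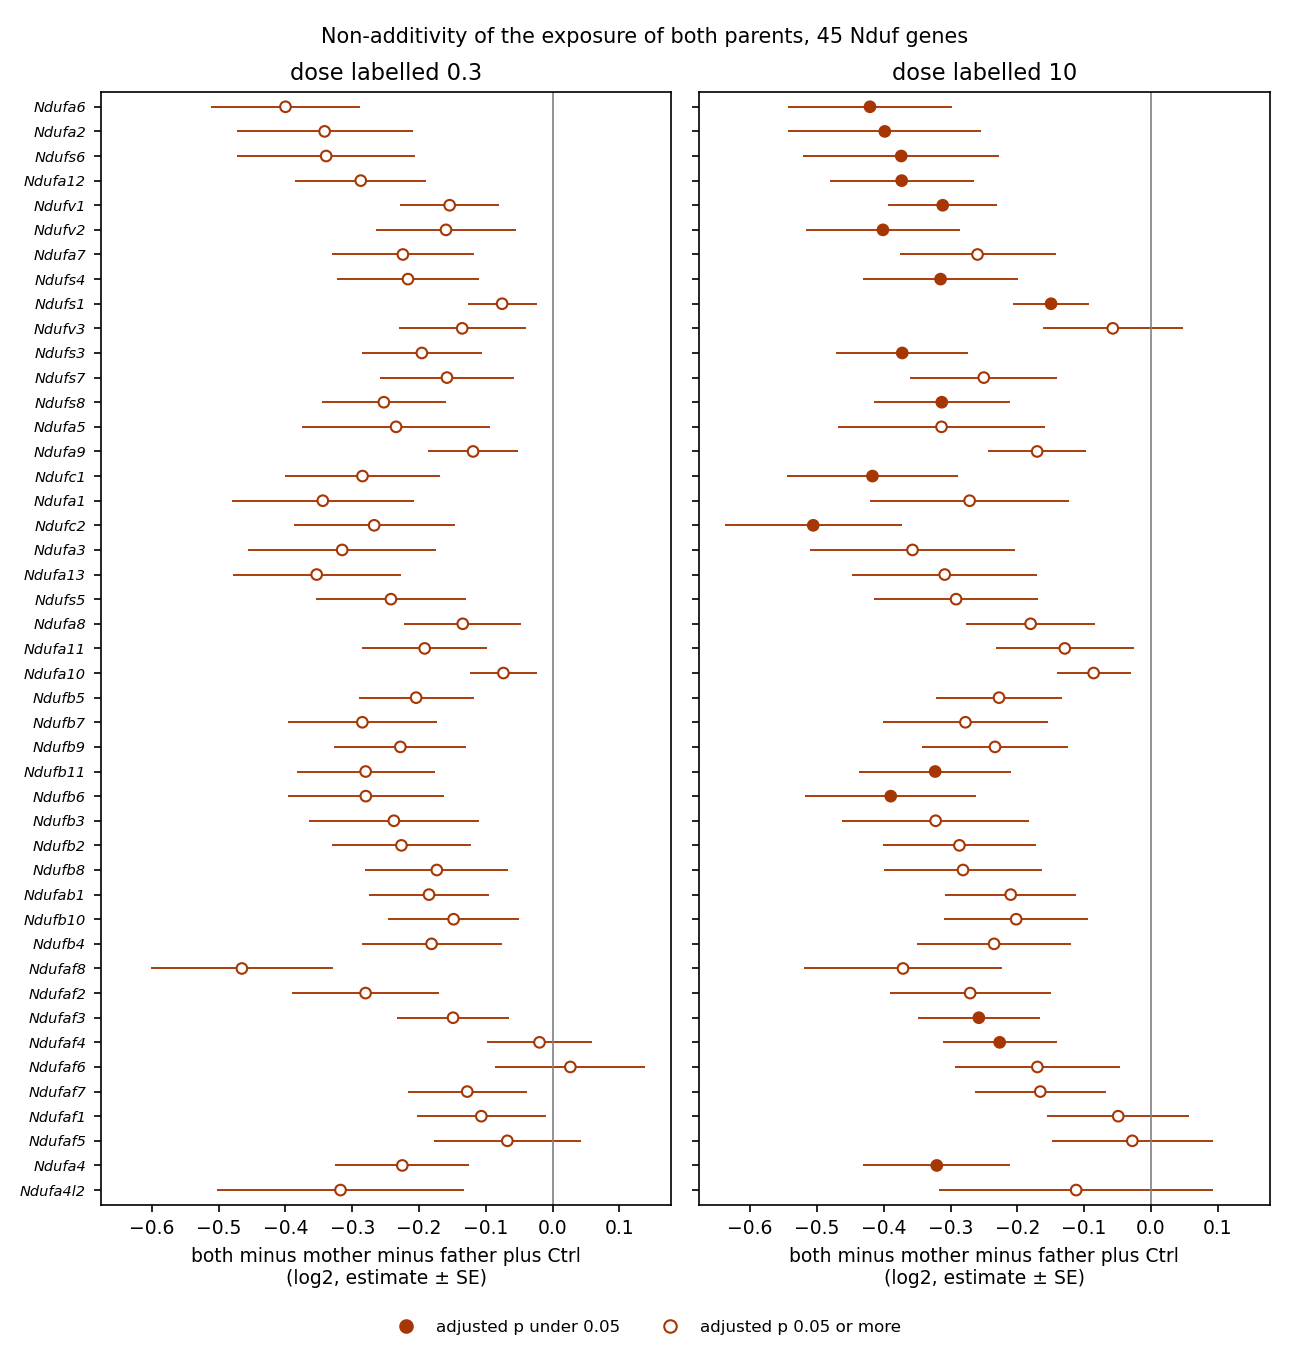
Non-additivity of 45 of the 46 Nduf genes (rows, by role): the log2 level with both parents exposed minus the mother's and the father's effects, as estimate and SE (x axis), at the doses labelled 0.3 (left) and 10 (right); filled points have an adjusted p under 0.05. On the right 17 points are filled, all below 0, with Ndufc2 farthest at -0.51, and on the left none is filled.

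No member was called between male and female embryos (13 of 14339 genes, 0.0907%, were called). The X-linked genes had male minus female log2 differences of 0.068 ± 0.054 (SE) for Ndufa1 and 0.049 ± 0.041 for Ndufb11 (adjusted p = 0.933 for both). The joint test of sex by exposure called no member (0% of all genes), and 1 had an unadjusted p under 0.05. DESeq2 and limma voom called no member in either test, and 1 member had an unadjusted p under 0.05 between the sexes.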

How the data were processed

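RNA-seq was analysed in 76 libraries of 7 groups. The deposited table holds expected counts per gene, estimated by the authors with Salmon 1.10.1 after Trim Galore 0.5.0 on mm10, per the submitters' processing notes; annotation, strand setting and any filter are not given in the sources used here. Counts were used as deposited, and gene IDs were matched to GENCODE M21 (GRCm38). Genes passing edgeR's filterByExpr (14339 of 14823, 484 removed) were tested with edgeR 4.0.16 (R 4.3.3): TMM factors, robust quasi-likelihood fit on group, batch and sex, 2-sided, Benjamini-Hochberg over all genes tested, threshold 0.05. CPM are TMM-normalised. The edgeR fit was tested on simulated counts for a single contrast, Maternal_10Cyp against Ctrl. Other contrasts and the alternative fits were not tested in this way. Alternatives were DESeq2 1.42.0, limma voom 3.58.1, sva 3.50.0 and others named at the end.

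One of the 46 genes is counted throughout but is not reported by name or drawn here. Members, lists and tests were chosen with earlier results of these data known. Full values are given for the 2 genes of lowest joint p per role, the 3 of lowest p per exposed group, the 2 of lowest p in other comparisons with calls, and the X-linked genes; for other lists up to 3 genes of lowest joint p.

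Replicate numbers were not used to pair libraries in the main fit. Same-numbered libraries of 2 groups had deviations correlated over 0.1 in 139 of 210 pairs, and in 105 of 210 with group by batch means removed. All pairs of 2 groups were over 0.1 in 1 of 21 cases. The share over 0.1 among libraries with different numbers was not computed, so these values neither show nor exclude pairing.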

Additional observations from a re-analysis of the deposited data

Results flagged for a closer look

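Within groups of 8 or 10 libraries, the gap of an extreme library to its neighbour was tested in 54 sets of values, of which chance flags about 1 in 20. Maternal_10Cyp replicate 1 was far above the other 7 libraries of its group in 7 of them: Ndufa6 (48.8 CPM, next 42.1), Ndufa4 (123, next 109.6), Ndufs3 (90.4, next 78.7), Ndufb5 (86.0, next 72.9), Ndufc2 (100.7, next 91.3), Ndufv1 (156, next 134.6) and the summed level of the 46 genes (3084, next 2705). These 7 sets are not independent of each other, because the genes moved together across libraries and the summed level includes them. Both_10Cyp replicate 10 was far below the rest of its group for Ndufa12 (45.3 CPM, next 53.1). Without Maternal_10Cyp replicate 1, 33 members were called in that group, the lowest count for any single library left out (33 to 38). The count for non-additivity at 10 fell from 18 to 12 without it, also the lowest for any single library left out.

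At 10, the effect of an exposed father on a gene differed between vehicle-treated and exposed mothers by the test of that difference (both minus mother minus father plus Ctrl, log2) in these described genes: Ndufc2 (-0.51), Ndufa6 (-0.42), Ndufc1 (-0.42), Ndufa2 (-0.40), Ndufs6 (-0.37), Ndufa12 (-0.37), Ndufs3 (-0.37), Ndufb11 (-0.32), Ndufa4 (-0.32) and Ndufv1 (-0.31). Over all genes tested, 13.3% were lower in this test.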

How the results depend on the processing

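Counts follow the order Paternal_0.3Cyp, Maternal_0.3Cyp, Both_0.3Cyp, Paternal_10Cyp, Maternal_10Cyp, Both_10Cyp, then the joint test, non-additivity at 10 and batch; as reported they were 33, 6, 6, 25, 35 and 9, then 18, 18 and 27. Percentages are the shares of all genes called in the same fit (higher against Ctrl, lower for non-additivity and batch). They stayed within 1.5 times with DESeq2 size factors, counts thinned to the smallest total and no filter on low counts; DESeq2 differed in calling 1 member for non-additivity at 0.3. The fit with 2 surrogate variables gave 0 in all 6 groups, 0 for the joint test (0.223%) and 0 for non-additivity at 10 (0.321%). Offsets for GC content and transcript length gave 9, 3, 2, 6 and 15, then 10, 6 and 11 (14.7%, 9.25% and 10.2%). Limma voom gave 6, 23 and 30 at 0.3 (9.67%, 17.7% and 20%), 22 in Both_10Cyp (4.17%), 35 joint (41.7%), 34 for non-additivity (21.1%), 43 for batch (23.4%), 3 for Maternal_10Cyp against Maternal_0.3Cyp and 2 for batch by exposure. Only the groups compared gave 0, 24 and 34 at 0.3 (0%, 16.2% and 16.9%), 25 in Both_10Cyp (3.12%) and 36 for non-additivity (16.7%), and had no value for the other tests. The globin ratio as a covariate gave 1, 0 and 0 at 0.3 (0.202%, 0.565% and 0.0349%) and 1 joint (4.03%). No batch term gave 1, 2, 7 and 1 in Maternal_0.3Cyp, Both_0.3Cyp, Paternal_10Cyp and Both_10Cyp (6.87%, 8.69%, 6.65% and 0.251%), and 11 joint (16%). Batch 1 alone gave 0, 0, 0, 12, 15 and 0, then 0 joint (0%); batch 2 alone gave 18, 0, 0, 0, 17 and 5, then 0 joint (5.94%) and 0 for non-additivity (1.45%). Shares of all genes are not given for the DESeq2 call at 0.3, nor for the limma voom counts between the maternal doses and for batch by exposure. The cause of the differences between settings was not tested.

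The replicate block gave 11, 5, 18 and 3 in Both_0.3Cyp, Paternal_10Cyp, Maternal_10Cyp and Both_10Cyp (12.5%, 7.64%, 15.4% and 1.23%), 11 joint (19.3%), 8 for non-additivity (8.63%) and 0 for batch (0%). The numbers share no labelled source, every pair of 2 groups correlated over 0.1 in 0 of 21 cases once group and batch means were removed, and 12 of 76 libraries correlated best with their own number, so the block is a hint at most. Of 2 alternatives chosen after seeing the data, leaving out 4 libraries high in embryonic globin (Paternal_0.3Cyp 3 and 4, Both_10Cyp 7 and 8) gave 0 in Both_10Cyp (0.0699%). Leaving out 5 high in diencephalon markers (Ctrl 3, Paternal_0.3Cyp 6 and 9, Paternal_10Cyp 1 and 8) gave 3, 5 and 3 in Both_0.3Cyp, Paternal_10Cyp and Both_10Cyp (6.72%, 3.64% and 0.518%), and 12 for batch (6.74%). Leaving out 1 library gave ranges of 10 to 36, 1 to 28, 3 to 31, 7 to 37, 33 to 38 and 1 to 29, then 13 to 36, 12 to 37 and 19 to 41, 0 to 3 for non-additivity at 0.3, 0 to 1 for Paternal_10Cyp against Paternal_0.3Cyp and 0 for the other dose, parent and sex comparisons; it was not run for batch or sex by exposure.

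Directions of described genes reversed, mostly near 0, under the GC and length offsets: Ndufa4 in all 6 groups (-0.032, -0.074, -0.068, -0.034, -0.036, -0.053) and for non-additivity (0.017), Ndufa1 (-0.020, -0.045 and -0.044 in Maternal_0.3Cyp, Both_0.3Cyp and Paternal_10Cyp), Ndufa4l2 (-0.014 and -0.070 in Both_0.3Cyp and Paternal_10Cyp), Ndufs3 (-0.023, -0.015 and -0.016 in Maternal_0.3Cyp, Both_0.3Cyp and Both_10Cyp), Ndufs7 (-0.024, -0.00955 and -0.022 in Maternal_0.3Cyp, Paternal_10Cyp and Both_10Cyp) and Ndufaf2 (-0.020, -0.040 and -0.00983 in Paternal_0.3Cyp, Both_0.3Cyp and Maternal_10Cyp). With 2 surrogate variables Ndufs3 (-0.034 and -0.000393 in Maternal_0.3Cyp and Both_0.3Cyp), Ndufs7 (-0.052) and Ndufb7 (-0.0091, both in Maternal_0.3Cyp) reversed. Ndufa4l2 in Paternal_10Cyp reversed with limma voom (-0.013), only the groups compared (-0.024), the replicate block (-0.11), and without Ctrl replicate 5 (-0.012) or Paternal_10Cyp replicate 6 (-0.051), in a range up to 0.076 without Ctrl replicate 12, and in Both_10Cyp with the replicate block (-0.00774). The lowest count of a member in a library was 65, so no member lay near the floor. After group, batch and sex means were removed, the summed Nduf level was related to log2 total counts at r = -0.299 (rho = -0.377) over 76 libraries.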
